A study of Mus musculus with 15 samples.

Results

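MYC, MAX and the MXD proteins form a network of basic helix-loop-helix leucine zipper transcription factors, and its transcripts were followed here in cultured mouse B cells that became IgE or IgG1 plasma cells. Its members were taken as the rows of the expression table that map to Myc, Mycn, Max, Mxd1, Mxd3, Mxd4, Mxi1, Mnt and Mga, which is 9 of 51912 genes in the table. Of these 9 genes, 8 passed the filter on low counts, as did 15692 genes in all, and Mycn did not. All 15 libraries came from wild-type cells with no treatment listed. All B cells spent the first 6 days on a layer of 40LB feeder cells (fibroblasts) in IL-4 (100 ng/ml), after which unsorted bulk cells were collected as the D6 group. The remaining cells spent 2 days in RPMI off the feeder with no stimulus, and at day 8 plasma cells (PC) and the cells named iGC in the labels were sorted separately for IgE and for IgG1. Each of the 5 groups had 3 biological replicates, and the series is about calcium signalling in IgE plasma cells.

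MYC binds DNA only as a partner of MAX, and the MYC-MAX pair activates genes for growth, ribosome production and cell division through a short DNA element, the E-box. The MXD proteins, MXI1 and MNT compete for MAX and for the same element, and recruit SIN3 and histone deacetylases, which repress transcription. MGA also pairs with MAX, within a Polycomb-type repressor complex. In B cells MYC accompanies proliferation, and the plasma cell regulator BLIMP1, the product of Prdm1, is known to repress Myc.

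Promoter sequences were examined because the network's own genes may carry the element that its proteins bind. RefSeq promoters of build GRCm38.p6, from 250 bases before to 50 after each start, were found for 8 of the 9 members. The E-box CACGTG, which reads the same on both strands, was present in the promoters of Max, Mxd4 and Mnt, that is in 3 of 8 members (37.5%), against 8.09% of 27025 genes and 7.15% of 32851 promoters in the table. Each is printed below 5′ to 3′ on the gene's strand as 30 bases, with the E-box in capitals.
Max, chr12:76962234-76962263, minus strand: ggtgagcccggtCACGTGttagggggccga
Mxd4, chr5:34187912-34187941, minus strand: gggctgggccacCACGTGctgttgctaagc
Mnt, chr11:74830789-74830818, plus strand: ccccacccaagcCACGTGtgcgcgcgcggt
Mlx, chr11:101087238-101087267, plus strand: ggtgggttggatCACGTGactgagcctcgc
The E-box began 3 bases before the RefSeq start in Max, thus spanning it, 219 bases before it in Mxd4 and 123 bases before it in Mnt. RefSeq starts can differ from the ends of the GENCODE gene positions given below, as in Max. Mlx, which encodes a MAX-like partner of some of the MXD proteins, is shown for comparison and had its E-box 40 bases before the start. Of the other partner genes followed below, Mlxipl also had an E-box, and Mlxip and Mycl had none. In the other gene lists used below, the share of genes with an E-box ran from 0% (11 proliferation genes) to 33.3% (18 metabolic and growth genes). The related letters CACGCG, searched on both strands and unable to overlap CACGTG, occurred in the promoter of Mga, and in 10.5% of all genes. Neither motif was found in these windows for Mycn, Mxd1, Mxd3 or the 3 promoters of Mxi1. Mxd4 had the highest group mean TPM of Mxd1, Mxd3, Mxd4, Mxi1 and Mnt in each group, and the 250 bases before its start, chr5:34187711-34187960 on the minus strand, hold a single E-box in capitals.
Mxd4: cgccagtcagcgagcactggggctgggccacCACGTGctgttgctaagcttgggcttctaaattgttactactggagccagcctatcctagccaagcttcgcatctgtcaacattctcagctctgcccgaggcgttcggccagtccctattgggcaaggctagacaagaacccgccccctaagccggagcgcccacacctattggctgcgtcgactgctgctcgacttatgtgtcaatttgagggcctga
A match to these letters describes the sequence and shows no binding.

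Library totals ran from 17740876 expected counts (IgE iGC replicate 3) to 54067953 (IgG1 PC replicate 2), and all members had whole-number counts in every library. IgG1 PC replicates 1 and 2 correlated least within a group (0.978). Transcripts of at least 6000 bases deviated from the group by a median log2 of -0.188 in replicate 1 and 0.126 in replicate 2, while in the 12 libraries of the other groups the deviation lay between -0.030 and 0.034. The 6 plasma cell markers (Sdc1, Xbp1, Irf4, Jchain, Bhlha15 and Prdm1) were called higher in both PC groups than in iGC cells, and all 6 B cell markers were detected in every group. In plasma cells against iGC cells the B cell markers were called lower in 6 of 6 in IgE and 5 of 6 in IgG1, and in 3 of 6 in IgE PC against IgG1 PC with 0 higher. Of all genes, 33.6%, 29% and 30.7% were called lower in these comparisons, in that order, and 30.5%, 30.1% and 27.4% higher. They summed to between 9242 and 9617 CPM (counts scaled to a common library size by TMM) in the iGC groups, 3771 and 3977 in IgE PC and 5023 and 5244 in IgG1 PC. The plasma cell markers summed to between 16608 and 19067 CPM in IgE PC and between 9264 and 13616 in IgG1 PC, with 4 of 6 called higher in IgE PC. T and NK cell markers summed to at most 0.700 CPM in a library, with Cd3e at 0 in each group but IgG1 PC. Of 6 myeloid markers 3 were tested, and these were called lower in 3 of 3 from IgE iGC to IgE PC (median -2.88) and in 2 of 3 in IgE PC against IgG1 PC (median -2.31), at summed levels of at most 8.58 CPM in a library. Fibroblast markers, which the feeder layer expresses, summed to between 196 and 321 CPM at D6, 49.2 and 67.3 in IgE iGC, 28.2 and 58.5 in IgG1 iGC, 21.3 and 35.1 in IgE PC, and 62.7 and 187 in IgG1 PC. All 6 fibroblast markers were called lower in IgE PC than in IgG1 PC, and higher in IgG1 PC than in IgG1 iGC. The part of these marker differences in the results that follow was not tested. In bulk RNA, fewer cells of a type and less RNA per cell cannot be told apart.

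Myc was lower in the plasma cells of both isotypes than in the other groups, and lowest in IgE PC. The gene lies at chr15:61985391-61990374 on the plus strand of GRCm38. Its level was 109, 124 and 125 CPM in the D6 libraries, 107, 113 and 92.6 in IgE iGC, and 124, 115 and 99.5 in IgG1 iGC. It was 77.2, 75.2 and 75.5 CPM in IgG1 PC, and 44.8, 47.7 and 46.6 CPM in IgE PC. The D6 and iGC libraries overlapped, every IgG1 PC library lay below them, and every IgE PC library lay below all IgG1 PC libraries. Mycn, the neuronal paralog, had 0 counts in all 15 libraries, which allows up to 0.169 CPM of the library total in the smallest library and 0.0555 in the largest, covering counting error only.

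**Figure D1:**
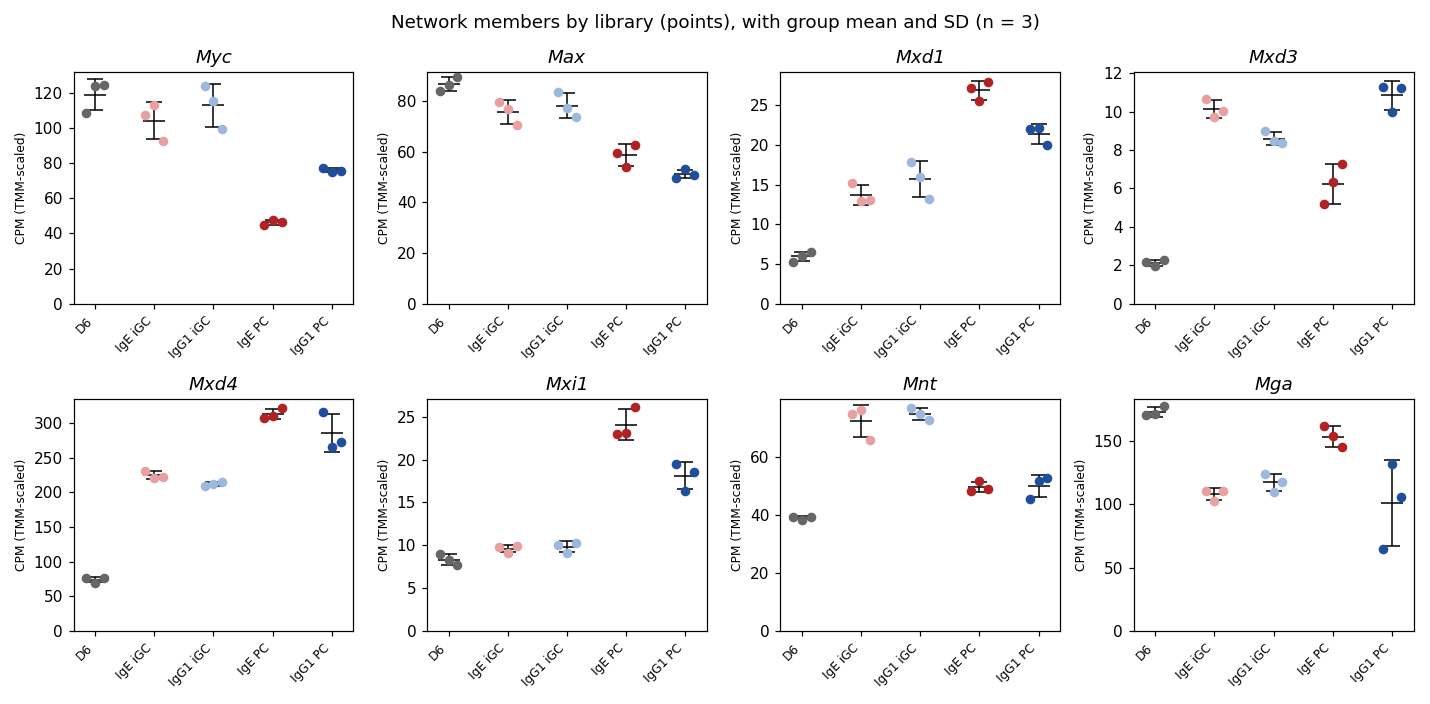
CPM (TMM-scaled, vertical axis from 0) of the 8 tested members in each library (points) of the 5 groups, with the group mean and SD (n = 3). Myc is lowest in the IgE PC libraries (44.8 to 47.7 CPM), Mxd4 is lowest at D6, and Mga spreads from 64.9 to 132 CPM in IgG1 PC.

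From iGC to PC, Myc fell in both isotypes, and fell further in IgE. The log2 fold change was -1.17 (SE 0.09) in IgE, a 2.25-fold fall, with an edgeR Benjamini-Hochberg adjusted p of 6.83e-09. In IgG1 it was -0.57 (SE 0.08; edgeR adjusted p = 3.21e-05), a 1.49-fold fall. The difference between these changes was itself past the threshold at -0.60 (SE 0.12; edgeR adjusted p = 0.000948). Between the plasma cells directly, Myc was 1.64-fold lower in IgE PC (log2 fold change -0.71, SE 0.09; edgeR adjusted p = 4.43e-06). These directions and calls held in each of the alternatives run for these 4 contrasts.

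Max, the shared partner, lies at chr12:76937269-76962201 on the minus strand and overlaps the predicted gene Gm47218 on the same strand. Its CPM was 84.1, 86.4 and 89.5 at D6, 79.7, 76.8 and 70.7 in IgE iGC, 83.5, 77.4 and 73.7 in IgG1 iGC, 59.4, 53.9 and 62.6 in IgE PC, and 49.6, 53.0 and 50.9 in IgG1 PC. The PC libraries of each isotype lay below the iGC libraries of that isotype, without overlap. Max fell by 0.37 on the log2 scale in IgE (SE 0.07; edgeR adjusted p = 0.000141) and by 0.61 in IgG1 (SE 0.07; 1.42e-06). Max was 0.19 higher in IgE PC than in IgG1 PC (SE 0.07; edgeR adjusted p = 0.0202). That difference turned to -0.06 under total-count scaling and to -0.08 on log2(TPM + 1), and its call was lost without IgE PC replicate 1 (adjusted p = 0.0562) or replicate 3 (0.0736).

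Among Mxd1, Mxd3, Mxd4, Mxi1 and Mnt, Mxd4 was the most abundant when levels are set per transcript length (TPM). It had 40.3 ± 2.04 TPM at D6, 116 ± 1.02 in IgE iGC, 111 ± 7.23 in IgG1 iGC, 99.5 ± 1.88 in IgE PC and 107 ± 3.69 in IgG1 PC (mean ± SD, n = 3). Of these 5, Mnt was next in group mean, with means from 10.96 TPM in IgE PC to 28.2 in IgG1 iGC, and Mxd1, Mxd3 and Mxi1 had group means between 2.89 and 12.3 TPM. Mga, which pairs with MAX in a complex of another kind, had group means of 39.04 TPM at D6, 20.8 in IgE iGC, 24.4 in IgG1 iGC, 18.5 in IgE PC and 15.1 in IgG1 PC. Mxd4 made up 62.0% ± 0.945 of the summed TPM of the 5 repressors at D6 and 78.7% ± 0.943 in IgE PC.

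The step from D6 to day 8 raised 4 repressor transcripts in the iGC cells of both isotypes, with Myc itself not past the threshold. Mxd4 had 75.7, 69.4 and 76.1 CPM at D6, 231, 221 and 222 in IgE iGC, and 209, 211 and 215 in IgG1 iGC. It rose 3.05-fold in IgE iGC (log2 1.61, SE 0.07) and 2.87-fold in IgG1 iGC (log2 1.52, SE 0.06). Mxd3, which is expressed in dividing cells, had 2.18, 1.97 and 2.26 CPM at D6, and rose by 2.25 and 2.01 on the log2 scale in IgE and IgG1 iGC. Mxd1 rose by 1.21 and 1.40, and Mnt by 0.90 and 0.94, with every iGC library above every D6 library for these 4 genes. Their edgeR adjusted p-values were at most 1.18e-07. Lack of overlap with D6 was not particular to these 4 genes, since it held in each iGC group for 7 of the 8 tested members, all but Myc. The share of all genes without overlap was not counted. Myc changed by -0.19 in IgE iGC (SE 0.08; edgeR adjusted p = 0.0557) and by -0.08 in IgG1 iGC (SE 0.08; 0.438), and the former passed the threshold in 8 of its 15 alternatives. Max fell by 0.19 in IgE iGC (edgeR adjusted p = 0.0164), a call lost without D6 replicate 3 (0.0651) or IgE iGC replicate 3 (0.101), and Mga fell by 0.68 and 0.56 in IgE and IgG1 iGC. Mxi1 rose by 0.24 in IgG1 iGC (edgeR adjusted p = 0.0269), and this call was lost without D6 replicate 2 (0.0636), D6 replicate 3 (0.106), IgG1 iGC replicate 1 (0.0646) or IgG1 iGC replicate 3 (0.0791).

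In IgE iGC against D6, 6 of the 8 tested members were called (4 higher, 2 lower) where 69.1% of all genes were called, 32.8% higher and 36.3% lower. In IgG1 iGC against D6, 6 of 8 were called (5 higher, 1 lower) against 68.4% of all genes, 32.4% higher and 36% lower. The IgE PC comparison with D6 called 7 of 8 (5 higher, 2 lower), where 76.4% of all genes were called, 36.9% higher and 39.5% lower. For IgG1 PC against D6 all 8 were called (5 higher, 3 lower), beside 71.9% of all genes, 35.9% higher and 36% lower. No test was made of these counts against the shares of all genes, and for so few genes they are not a result about the network. Mnt, 1 of the 5 called higher in each PC group, was called lower than at D6 on log2(TPM + 1). Its values there were -0.50 in IgE PC (limma adjusted p = 0.00184) and -0.39 in IgG1 PC (0.0113). The comparisons share the D6 libraries. D6 also differs from the day 8 groups in being unsorted, on feeder cells and in IL-4 up to collection, so stage, sorting, feeder and IL-4 cannot be told apart.

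Mxd1 and Mxi1 rose further in plasma cells by TMM scaling, in IgE more than in IgG1. MXD1 and MXI1 are repressors linked to the exit from proliferation. Mxd1 (chr6:86647042-86669161, minus strand, sharing its strand with the predicted gene Gm44292) had 15.2, 12.9 and 13.1 CPM in IgE iGC and 27.2, 25.5 and 27.9 in IgE PC. In IgG1 it had 17.8, 16.02 and 13.2 CPM in iGC cells and 21.97, 22.2 and 19.97 in PC. All PC libraries lay above all iGC libraries, and all IgE PC libraries above all IgG1 PC libraries. The rise was 0.96 on the log2 scale in IgE (SE 0.10; edgeR adjusted p = 7.35e-07) and 0.44 in IgG1 (SE 0.10; 0.00173), and the difference between isotypes was 0.52 (SE 0.15; 0.00994). Between the plasma cells it was 0.33 (SE 0.10; edgeR adjusted p = 0.0114), a call lost without IgG1 PC replicate 3 (adjusted p = 0.0504). Under total-count scaling that difference had a log2 fold change of 0.079 (adjusted p = 0.512), and on log2(TPM + 1) of 0.13 (limma adjusted p = 0.401). The isotype difference of the change was also lost under both, with log2 values of 0.28 (adjusted p = 0.123) and 0.22 (0.361). On log2(TPM + 1) the rise in IgE was 0.13 on the log2 scale and not called (adjusted p = 0.319), while the change in IgG1 turned to -0.085.

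Mxi1, at chr19:53310518-53375810 on the plus strand, had 9.80, 9.11 and 9.92 CPM in IgE iGC and 23.0, 23.1 and 26.1 in IgE PC. In IgG1 it had 10.1, 9.13 and 10.3 CPM in iGC cells and 19.5, 16.4 and 18.5 in PC. It rose 2.51-fold in IgE (log2 1.33, SE 0.09; edgeR adjusted p = 2.18e-09) and 1.84-fold in IgG1 (log2 0.88, SE 0.09; 5.47e-07). The libraries of IgE PC and IgG1 PC did not overlap, and Mxi1 was 0.41 higher in IgE PC (SE 0.08; edgeR adjusted p = 0.000677). The isotype difference of the change was 0.45 (SE 0.12; edgeR adjusted p = 0.00884). Under total-count scaling and on log2(TPM + 1), both isotype differences kept their sign and lost their call, at 0.16 and 0.21 between the plasma cells and 0.21 and 0.25 for the change. Across the 15 libraries the log2 CPM of Mxi1 and Myc ran in opposite directions (Pearson r -0.95), a description of libraries that share groups and scaling.

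Mxd3 fell in IgE plasma cells and, by TMM scaling, rose in IgG1 plasma cells, where it fell on log2(TPM + 1). It lies at chr13:55325168-55329823 on the minus strand and overlaps Prelid1 on the other strand. Its CPM was 10.6, 9.72 and 10.02 in IgE iGC and 5.17, 6.32 and 7.25 in IgE PC, and it was 8.98, 8.48 and 8.34 in IgG1 iGC and 11.3, 9.98 and 11.2 in IgG1 PC. It fell by 0.70 on the log2 scale in IgE (SE 0.11; edgeR adjusted p = 4.73e-05). In IgG1 the change was 0.33 (SE 0.11; edgeR adjusted p = 0.0155), and the call was lost without IgG1 PC replicate 3 (adjusted p = 0.0516) or IgG1 iGC replicate 3 (adjusted p = 0.0547). Under total-count scaling the log2 fold change in IgG1 was 0.0997 (adjusted p = 0.412), and on log2(TPM + 1) it turned to -0.24 (limma adjusted p = 0.0432). The difference between the changes was -1.03 (SE 0.16; edgeR adjusted p = 9.56e-05). Mxd3 was 1.74-fold lower in IgE PC than in IgG1 PC (log2 -0.80, SE 0.11; edgeR adjusted p = 1.96e-05), and this and the difference of the changes were called in each alternative. The genes most like it over the 15 libraries were Aurkb (Pearson r 0.9925), Cdca3 (0.9911) and Tedc1 (0.9906). Aurkb is a mitotic kinase.

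Mnt, at chr11:74830920-74845725 on the plus strand, fell in the plasma cells of both isotypes. It had 74.7, 76.1 and 65.8 CPM in IgE iGC and 48.2, 51.4 and 48.8 in IgE PC, with 76.6, 74.6 and 72.7 in IgG1 iGC and 45.5, 51.7 and 52.5 in IgG1 PC. It fell by 0.55 in IgE (SE 0.06; edgeR adjusted p = 1.70e-06) and by 0.58 in IgG1 (SE 0.06; 1.66e-06) on the log2 scale. The difference between the changes was 0.03, with a 95% interval from -0.161 to 0.223. Mxd4 (chr5:34173883-34187720, minus strand) reached 307, 310 and 322 CPM in IgE PC and 316, 266 and 272 in IgG1 PC. By TMM it rose from iGC by 0.48 in IgE (SE 0.06) and 0.43 in IgG1 (SE 0.06), but the rise in IgE was 0.0084 under total-count scaling and turned to -0.22 on log2(TPM + 1), where the change in IgG1 was -0.055. Mxd4 did not pass the threshold between the plasma cells (0.14, 95% interval 0.003 to 0.272; edgeR adjusted p = 0.0748), and without IgG1 PC replicate 1 it did, at 0.22 (0.000908).

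Mga, at chr2:119897228-119969581 on the plus strand, has a longest transcript of 13931 bases, and its libraries spread widely in IgG1 PC. It had 162, 154 and 146 CPM in IgE PC and 64.9, 132 and 106 CPM in IgG1 PC, against 111, 102.5 and 111 in IgE iGC and 124, 110.3 and 118 in IgG1 iGC. The low value of 64.9 is from IgG1 PC replicate 1, the library in which long transcripts as a class were low. Mga rose by 0.51 from IgE iGC to IgE PC (SE 0.17; edgeR adjusted p = 0.0166), a call lost without IgE PC replicate 1 (0.0515) or IgE iGC replicate 2 (0.0563), and turned to -0.16 on log2(TPM + 1). Under total-count scaling the rise was 0.041 (edgeR adjusted p = 0.854), and 9 of 15 alternatives kept the call. In IgG1 the change was -0.21 (SE 0.17; edgeR adjusted p = 0.296), at 0.020 without IgG1 PC replicate 1 and -0.47 (adjusted p = 0.0120) without replicate 2. Mga was 0.60 higher in IgE PC than in IgG1 PC (SE 0.17; edgeR adjusted p = 0.00735). Without IgG1 PC replicate 1 the log2 difference was 0.37 (adjusted p = 0.000863). The call was lost with only the groups compared (adjusted p = 0.0645), under total-count scaling (log2 difference 0.34, adjusted p = 0.133) and on log2(TPM + 1) (log2 difference 0.36, limma adjusted p = 0.188). The difference of the changes was 0.72 (SE 0.24; edgeR adjusted p = 0.0252), lost without IgE PC replicate 1 (0.0541), IgE iGC replicate 2 (0.0576) or IgG1 iGC replicate 1 (0.0548).

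**Figure D2:**
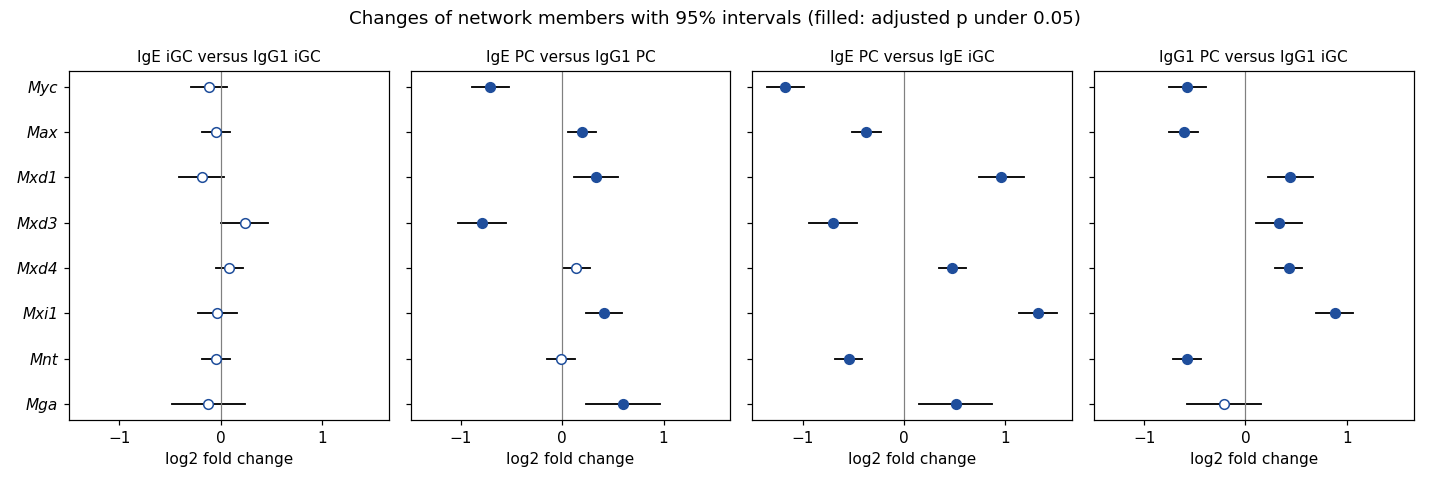
Log2 fold changes (horizontal axis) of the 8 tested members with 95% intervals in 4 comparisons, filled where the edgeR adjusted p was under 0.05. Between the iGC groups no member is filled, while between the PC groups 6 of 8 are, with Myc at -0.71 and Mxd3 at -0.80 to the left of 0.

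Counted over the network, 8 of the 8 tested members were called from IgE iGC to IgE PC (4 higher, 4 lower), where 64.1% of all genes were called, 30.5% higher and 33.6% lower. In IgG1, 7 of 8 were called (4 higher, 3 lower), beside 59.1% of all genes, 30.1% higher and 29% lower. Between the plasma cells 6 of 8 were called, with Max, Mxd1, Mxi1 and Mga higher and Myc and Mxd3 lower in IgE PC, where the share of all genes was 58.1%, with 27.4% higher and 30.7% lower. For 5 of 8 members the step from iGC to PC was unequal in the isotypes (3 higher, 2 lower), against 42.9% of all genes, 19.8% higher and 23.1% lower. The count between plasma cells fell to 3 under total-count scaling and to 2 on log2(TPM + 1), and that of the difference of changes to 3 and 2. In both, the 2 calls that remained under either setting were Myc and Mxd3. Total-count scaling added Mnt between the plasma cells (log2 difference -0.27, adjusted p = 0.0103) and, in the difference of changes, Mxd4 with its sign turned (-0.18, adjusted p = 0.0490). Among these contrasts, total-count scaling split all calls between plasma cells into 2272 higher and 7265 lower, in place of 4303 and 4816.

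Between IgE iGC and IgG1 iGC, 0 of the 8 members were called by edgeR, by DESeq2 or by limma on log2(TPM + 1), and 1, Mxd3, had an unadjusted p under 0.05. Of all genes 3.87% were called there, 1.99% higher and 1.88% lower. The members' log2 fold changes ran from -0.19 for Mxd1 (95% interval -0.414 to 0.036) to 0.24 for Mxd3 (0.004 to 0.470). The interval of Myc, -0.292 to 0.065, does not reach the -0.71 seen between the plasma cells.

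A measure that does not depend on how libraries are scaled was the TPM of the 5 repressors (Mxd1, Mxd3, Mxd4, Mxi1 and Mnt) per TPM of Myc in the same library. It was 0.712, 0.584 and 0.647 at D6. It was 1.97, 1.89 and 2.22 in IgE iGC and 1.64, 1.82 and 2.05 in IgG1 iGC, so the iGC groups overlapped and lay above D6. In IgG1 PC it was 3.78, 3.27 and 3.47, and in IgE PC 5.86, 5.49 and 5.81, with no overlap between these groups or with the others. The mean rose from 0.648 ± 0.0642 at D6 to 5.72 ± 0.201 in IgE PC (mean ± SD, n = 3 each). Summed repressor TPM was 65.0 ± 2.69 at D6, 164 ± 3.23 in IgE iGC, 160 ± 5.98 in IgG1 iGC, 127 ± 1.17 in IgE PC and 138 ± 6.94 in IgG1 PC, while Myc TPM was 101 ± 8.01, 81.4 ± 8.26, 87.8 ± 7.89, 22.1 ± 0.962 and 39.6 ± 4.02 in the same order (n = 3 each). Between D6 and iGC the repressor sum was higher in every iGC library. Myc TPM was 91.7 to 106 at D6, 72.2 to 88.3 in IgE iGC, without overlap, and 78.9 to 93.8 in IgG1 iGC, with overlap. Between iGC and PC both TPM sums were lower, Myc by the larger factor. Unlike the ratio, these sums depend on the scaling. By TMM, Mxd4, the largest part of the repressor sum, rose from iGC to PC by log2 0.48 in IgE and 0.43 in IgG1. Mxd1 and Mxi1 also rose by TMM in both isotypes, while Mnt fell in both, and Mxd3 fell in IgE and rose in IgG1. Max TPM per Myc TPM, computed as a further description, was 0.866 at D6, 0.905 in IgE iGC, 0.874 in IgG1 iGC and 0.877 in IgG1 PC, and 1.48 in IgE PC, where the 3 libraries (1.55, 1.32 and 1.57) lay above all others.

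**Figure D3:**
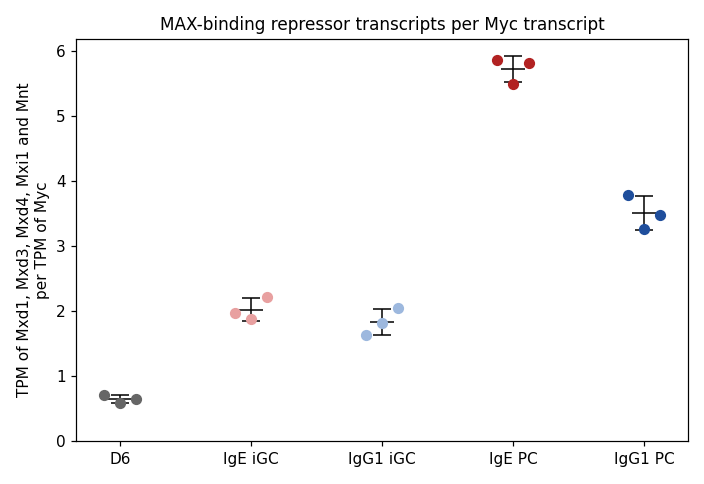
TPM of Mxd1, Mxd3, Mxd4, Mxi1 and Mnt per TPM of Myc in each library (points, vertical axis from 0), with the group mean and SD (n = 3). The D6 libraries lie at 0.584 to 0.712, the iGC libraries at 1.64 to 2.22, IgG1 PC at 3.27 to 3.78 and IgE PC at 5.49 to 5.86.

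The wider network was followed through Mlx, Mlxip, Mlxipl and Mycl. Mlx pairs with some of the MXD proteins and with the glucose sensors encoded by Mlxip and Mlxipl. Mlx had 35.3, 30.9 and 33.5 CPM in IgE iGC, 67.1, 64.3 and 65.0 in IgE PC, 31.1, 31.5 and 30.1 in IgG1 iGC and 47.3, 42.96 and 39.1 in IgG1 PC. It rose by 0.98 in IgE and by 0.48 in IgG1 on the log2 scale, and the difference of these changes was 0.50 (SE 0.10; edgeR adjusted p = 0.000710). On log2(TPM + 1) that difference was 0.35 and not called (limma adjusted p = 0.0648), and the change of Mlx in IgG1 turned to -0.057. Mycl, the third MYC paralog, was low, at 2.41, 2.28 and 2.22 CPM in IgE iGC and 0.348, 0.284 and 0.244 in IgE PC, and fell by 2.96 in IgE (SE 0.27) and 0.87 in IgG1 (SE 0.24) on the log2 scale. On log2(TPM + 1), which compresses low values, the changes of Mycl were -1.03 and -0.52 and their difference -0.51, all called. Mlxip rose by 0.18 and 0.26, becoming -0.29 and 0.029 under total-count scaling and turning to -0.59 and -0.33 on log2(TPM + 1), and its call in IgE was lost without IgE PC replicate 1 (0.0602) or 2 (0.0952), or IgE iGC replicate 1 (0.126) or 2 (0.0710). Mlxipl did not pass the filter.

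Genes that MYC is known to support in ribosome production were lower in each day 8 group than at D6, and mostly lower in plasma cells than in iGC cells. Of 24 nucleolar and ribosome biogenesis genes, 24 were called lower than at D6 in each of the 4 day 8 groups, with medians of -1.05 and -0.93 in IgE and IgG1 iGC and -1.69 and -1.23 in IgE and IgG1 PC, beside medians of all genes between -0.043 and 0.007. Of all genes, 36% to 39.5% were called lower in these comparisons with D6. From iGC to PC, 20 fell and 1 rose in IgE (median -0.67, all genes -0.078), and 19 fell and 1 rose in IgG1 (median -0.31, all genes 0.013). Of all genes, 33.6% fell and 30.5% rose in IgE, and 29% fell and 30.1% rose in IgG1. The gene that rose was Gnl3, by 0.29 and 0.33, and it turned to -0.43 and -0.27 on log2(TPM + 1), and to -0.18 in IgE under total-count scaling. Between the plasma cells 20 were lower in IgE PC and 0 higher (median -0.46), where 30.7% of all genes were lower and 27.4% higher. Between the iGC groups 0 of 24 were called by edgeR or by limma on log2(TPM + 1), where edgeR called 3.87% of all genes. Even so, 10 had an unadjusted edgeR p under 0.05, of which 10 were lower in IgE iGC. Npm1, a nucleolar chaperone, had 356, 358 and 367 CPM in IgE PC and 502, 654 and 552 in IgG1 PC. Nhp2, a subunit of the ribonucleoproteins that modify ribosomal RNA, had 13.5, 13.8 and 12.7 CPM in IgE PC and 36.2, 33.9 and 36.4 in IgG1 PC, a difference of -1.41 on the log2 scale (SE 0.06; edgeR adjusted p = 1.83e-10).

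**Figure D4:**
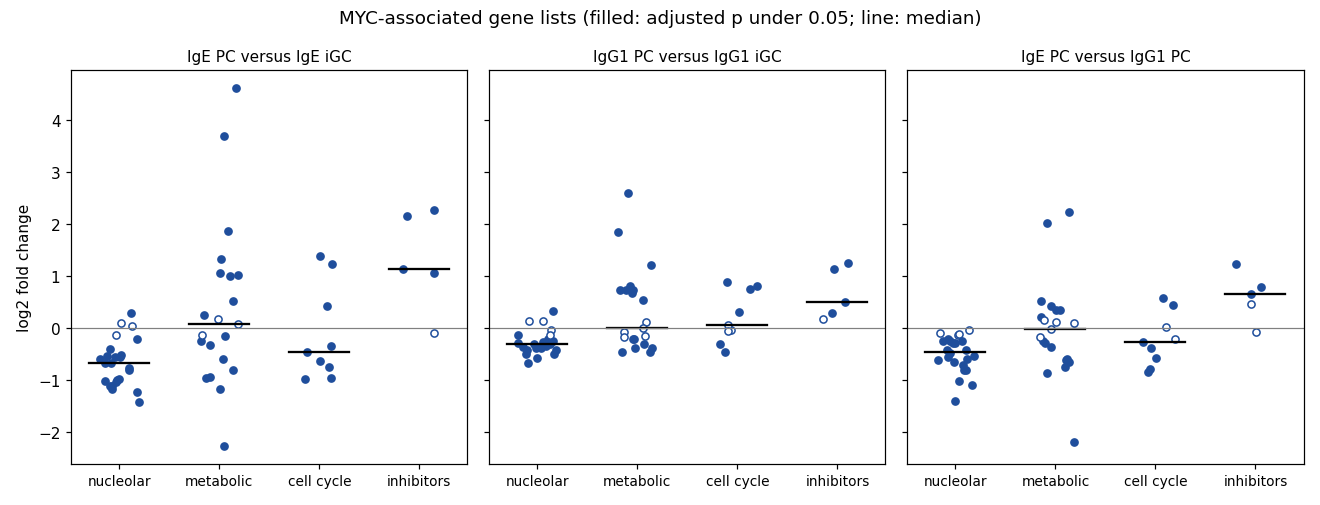
Log2 fold changes (vertical axis) of single genes in 4 lists, with the list median as a line, in 3 comparisons; filled points had an edgeR adjusted p under 0.05. The nucleolar medians lie at -0.67, -0.31 and -0.46, while the metabolic genes spread to both sides of 0, led by Slc3a2 at 4.63 in IgE.

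Metabolic and growth genes linked to MYC were mostly lower in the day 8 groups than at D6. Against D6, 1 of 21 was higher and 20 lower in each iGC group (medians -0.90 in IgE and -0.91 in IgG1). In each PC group 4 were higher and 15 lower than at D6 (medians -0.52 and -0.55). Medians of all genes lay between -0.043 and 0.007, with 36% to 39.5% of all genes called lower. From iGC to PC and between the plasma cells the list changed in both directions, as all genes did. From iGC to PC 9 of 21 rose and 9 fell in IgE (30.5% and 33.6% of all genes), 9 rose and 7 fell in IgG1 (30.1% and 29% of all genes), and between the plasma cells 7 were higher and 9 lower in IgE PC (27.4% and 30.7% of all genes). Slc3a2 and Slc7a5 encode the 2 chains of a large neutral amino acid transporter. Slc3a2 had 67.3, 69.4 and 71.1 CPM in IgE iGC and 1679, 1633 and 1836 in IgE PC, and 60.4, 58.5 and 61.2 in IgG1 iGC and 435, 297 and 363 in IgG1 PC. It rose by 4.63 in IgE (SE 0.12) and 2.60 in IgG1 (SE 0.11) on the log2 scale, and Slc7a5 by 3.69 (SE 0.10) and 1.86 (SE 0.09). Shmt1, a folate enzyme, had 22.8, 27.8 and 29.1 CPM in IgG1 PC and 5.95, 6.16 and 5.19 in IgE PC, a difference of -2.20 (SE 0.09). Ldha, lactate dehydrogenase A, differed by -0.87 on the log2 scale between IgE PC and IgG1 PC (SE 0.05; edgeR adjusted p = 3.88e-09).

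Among 9 cell cycle genes linked to MYC, 3 rose and 6 fell from IgE iGC to IgE PC (30.5% and 33.6% of all genes), and 4 rose and 2 fell in IgG1 (30.1% and 29% of all genes). Against D6, 6 were higher and 2 lower in IgE iGC, 4 and 2 in IgG1 iGC, 4 and 4 in IgE PC, and 5 and 1 in IgG1 PC. Of all genes, 32.4% to 36.9% were called higher and 36% to 39.5% lower than at D6. Ccnd2, cyclin D2, rose by 1.38 in IgE, and Cdc25a, a phosphatase that activates cyclin-dependent kinases, by 1.23 in IgE and 0.80 in IgG1. E2f1 and Cdk4 were lower in IgE PC than in IgG1 PC, by -0.85 and -0.59, within a list in which 2 were higher and 5 lower. Of 12 general proliferation genes, 10 were lower and 0 higher in IgE PC than in IgG1 PC (30.7% and 27.4% of all genes), with Mcm3 at -1.52 and Mcm5 at -1.26. Unlike the nucleolar and metabolic lists, this list was mostly higher than at D6 by TMM scaling. It had 10 higher and 0 lower in IgE iGC (median 0.971) and 8 and 0 in IgG1 iGC (0.632). In plasma cells against D6 it had 8 higher and 4 lower in IgE (0.823) and 10 and 0 in IgG1 (1.2). From iGC to PC the same list had 2 higher (Mki67 and Ccnb1) and 8 lower in IgE and 7 higher and 0 lower in IgG1, which became 2 higher and 2 lower in IgG1 under total-count scaling, and 2 higher and 8 lower on log2(TPM + 1). Of 5 cell cycle inhibitors that MYC is known to repress, 4 rose and 0 fell in each isotype from iGC to PC (medians 1.13 in IgE and 0.49 in IgG1, all genes -0.078 and 0.013). Against D6, 2 inhibitors were higher and 3 lower in each iGC group (medians -1.02 in IgE and -1.11 in IgG1). In IgE PC 3 were higher and 2 lower than at D6 (median 1.25), and in IgG1 PC 2 and 2 (median 0.017). Gadd45a had 8.53, 8.58 and 9.25 CPM in IgE iGC and 37.6, 43.3 and 45.9 in IgE PC, and 20.2, 15.7 and 18.2 in IgG1 PC. Cdkn1a, which encodes p21, had 182, 203 and 214 CPM at D6, 11.8, 12.7 and 9.40 in IgE iGC and 54.8, 49.3 and 49.7 in IgE PC, so that its rise in PC stayed below D6.

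Of 14 genes that control the level of MYC, 9 rose and 2 fell from iGC to PC in IgE (median 0.47, all genes -0.078), and 8 rose and 2 fell in IgG1 (median 0.58, all genes 0.013), beside 30.5% higher and 33.6% lower of all genes in IgE and 30.1% and 29% in IgG1. Prdm1 rose by 5.23 in IgE (SE 0.14) and 5.63 in IgG1 (SE 0.14), from 6.87, 5.86 and 4.96 to 234, 231 and 211 CPM in IgE and from 4.44, 3.84 and 3.68 to 199, 212 and 183 CPM in IgG1. Between the plasma cells Prdm1 differed by 0.19, with a 95% interval from -0.044 to 0.417, and was not called. Bcl6, a germinal centre repressor, fell by 2.84 and 2.39, and Bin1, whose product binds MYC and restrains it, fell by 2.05 and 1.05, in IgE and IgG1. The kinase genes Pim1, in IgE, and Pim2, in IgG1, rose by 2.18 and 2.20. Each is named for the isotype where it was among the 2 largest rises of the list, which does not make its rise particular to that isotype. In IgE PC against IgG1 PC 4 of the 14 were higher and 3 lower, where 27.4% of all genes were higher and 30.7% lower. Bin1 was lower by a log2 difference of -0.86, and Aurka, a mitotic kinase that stabilises MYC proteins, by -0.45. Gsk3b and Fbxw7, which mark MYC for degradation, were higher by 0.66 and 0.29. The call of Fbxw7 was lost under total-count scaling (log2 fold change 0.043, adjusted p = 0.572), and that of Gsk3b on log2(TPM + 1) (log2 fold change 0.37, limma adjusted p = 0.0537).

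Among genes for the partners that MYC and its repressors recruit, calls from iGC to PC went in both directions, save for the MGA complex in IgG1. Of 9 coactivator genes 3 rose and 4 fell in IgE (median 0.086, all genes -0.078) and 3 rose and 2 fell in IgG1 (median 0.058, all genes 0.013), with 30.5% of all genes higher and 33.6% lower in IgE and 30.1% and 29% in IgG1, so these counts are not a result about the list. The rises of Ep400 (0.60 and 0.39) and Trrap (0.53 and 0.38) turned to -0.048 and -0.17, and to -0.33 and -0.19, on log2(TPM + 1). Ep400 and Wdr5 were called higher in IgE PC than in IgG1 PC by 0.25 and 0.16. Of 15 alternatives, 5 kept the call of Ep400 and 8 that of Wdr5, and both values turned negative under total-count scaling (-0.0098 and -0.090). With 1 library left out, the call of Ep400 was lost without IgE PC replicate 1 (adjusted p = 0.131), IgE PC replicate 2 (0.104) or IgG1 PC replicate 1 (0.161), and that of Wdr5 without IgE PC replicate 3 (0.0641). Of 8 SIN3 and histone deacetylase genes 2 rose and 4 fell in IgE (median -0.21), and 1 rose and 4 fell in IgG1 (median -0.17). Hdac1 fell by 1.38 in IgE (SE 0.05) and 0.65 in IgG1 (SE 0.05), and Sin3b rose by 0.18 and 0.40, with its IgE call lost without IgE PC replicate 2 (0.0660) or IgE iGC replicate 3 (0.0756). Among 9 genes of the complex that contains MGA, 1 rose and 4 fell from iGC to PC in IgE (median -0.192), and 0 rose and 6 fell in IgG1 (median -0.465). In IgE PC against IgG1 PC, 4 of the 9 were higher and 2 lower, where 27.4% of all genes were higher and 30.7% lower. Cbx3 (0.53) and Rybp (0.47) were among those higher, with calls lost under total-count scaling (log2 differences 0.27 and 0.21, adjusted p = 0.0613 and 0.166), and Tfdp1 (-0.87) and L3mbtl2 (-0.58) were those lower.

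Among libraries, the genes most like each member, by Pearson r of log2 CPM over the 15 libraries, gave a further description without a test. For Myc they were Acat2 (0.983), Fth1 (0.983) and Dnajc8 (0.982), for Mxd4 Pml (0.996), Ptk2b (0.995) and Skiv2l (0.995), and for Mga Xrn1 (0.990), Bdp1 (0.979) and Akap11 (0.972). Mxi1 was most like Rnf5 (0.992), Mxd1 most like Glcci1 (0.988), Mnt most like Lrrc61 (0.989) and Max most like Twistnb (0.976).

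The directions of several members depended on the scaling, and the TMM factors ran from 0.764 in IgE PC to 1.151 at D6. Total-count scaling moved the median of all genes to -0.30 between the plasma cells, to -0.55 from iGC to PC in IgE and to -0.22 in IgG1. It split the calls from iGC to PC into 2651 higher and 8743 lower in IgE, in place of 4788 and 5270, and into 3226 and 6840 in IgG1, in place of 4720 and 4553. For the difference of the changes it gave 1542 and 5603 in place of 3101 and 3632, for IgE PC against D6 3311 and 9032 in place of 5792 and 6191, and for IgG1 PC against D6 3964 and 7370 in place of 5636 and 5645. Under it the fall of Myc was 1.64 in IgE and 0.81 in IgG1 on the log2 scale, and the rise of Mxi1 was 0.86 and 0.65. The rise of Mxd1 was 0.49 in IgE and 0.21 in IgG1, the latter no longer called (edgeR adjusted p = 0.0788).

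**Figure D5:**
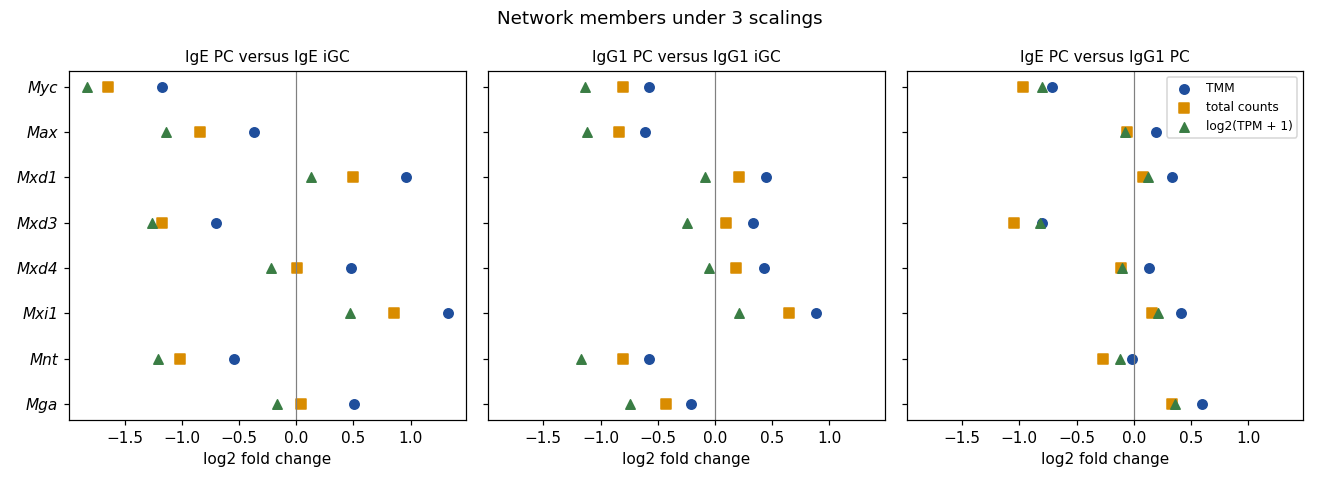
Log2 fold changes (horizontal axis) of the 8 tested members in 3 comparisons under TMM scaling, total-count scaling and log2(TPM + 1). Myc stays to the left of 0 under all 3, while Mxd4 from iGC to PC lies at 0.48, 0.0084 and -0.22 in IgE.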

How the data were processed

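PolyA RNA was sequenced as strand-specific single-end reads of 76 bases, per the labels' protocols. The submitters' processing notes name cutadapt 1.9.1, STAR 2.5.2a, RSEM 1.3.0, DESeq2 1.12.3 and GRCm38. The authors deposited expected counts, RSEM's estimates per gene, and TPM, scaled for length and library total. Of the per-sample columns, 0 were left unmapped. Positions came from GENCODE vM21 on GRCm38.

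Expected counts were rounded, filtered with filterByExpr (minimum count 10, minimum total 15), scaled by TMM and fitted with edgeR 4.0.16 quasi-likelihood tests (R 4.3.3) to all 15 libraries with 1 mean per group. P-values were Benjamini-Hochberg adjusted over 15692 genes, with a threshold of 0.05. SE is the log2 fold change divided by the square root of F, which is approximate. The script was tested on simulated data, where changed genes of low expression were recovered less often than those of at least 10 CPM. Alternatives used DESeq2 1.42.0, limma 3.58.1 on log2(TPM + 1), other scalings and filters, fewer libraries and a replicate term.

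Members and gene lists were chosen with earlier results of these data known. Named list genes were among the 2 called genes with the largest change per list, direction and contrast at a mean of 10 CPM or more, and like genes were the 3 of highest correlation. Comparisons given outside that rule (Prdm1 and Npm1 between plasma cells, Cdkn1a against D6) were chosen after their values were seen.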

Additional observations from a re-analysis of the deposited data

Results flagged for a closer look

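Unequal changes from iGC to PC in the isotypes were found by edgeR's test of the difference itself for 5 members and 2 partners, given as the change in IgE minus that in IgG1 on the log2 scale. The difference was -0.60 for Myc (edgeR adjusted p = 0.000948), 0.52 for Mxd1 (0.00994), -1.03 for Mxd3 (9.56e-05), 0.45 for Mxi1 (0.00884) and 0.72 for Mga (0.0252). It was 0.50 for Mlx (0.000710) and -2.09 for Mycl (0.000344). Under total-count scaling the differences were 0.28 for Mxd1, 0.21 for Mxi1 and 0.47 for Mga, no longer called, and -0.84 for Myc and -1.27 for Mxd3, still called. On log2(TPM + 1) the difference of Mycl, a gene of at most 2.41 CPM in a library, was -0.51 and still called.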

How the results depend on the processing

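For members, 1128 alternative values were computed, of which 1016 kept direction and side of the threshold. In all 49 lost a call, 6 of them with a change of sign, 35 gained a call, 1 of them with a change of sign, and 35 changed sign, with or without a change of call. Myc and Mxd3 kept their calls between the plasma cells and in the difference of changes in each alternative. The depth of IgE iGC replicate 3, 17740876 counts, limits low genes in that group. The cause of the changes below was not tested.

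Members called between the plasma cells numbered 3 under total-count scaling and 2 on log2(TPM + 1), in place of 6, and members called in the difference of changes 3 and 2, in place of 5. All genes called between the iGC groups, 607, became 937 with DESeq2 and 1503 with only the groups compared, and 323 to 403 with 1 library left out. The difference of changes called 4345 genes on log2(TPM + 1), in place of 6733.

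Under total-count scaling these log2 values changed sign. Between the plasma cells they were Max (-0.060), Mxd4 (-0.11), Ep400 (-0.0098) and Wdr5 (-0.090). From iGC to PC in IgE they were Mlxip (-0.29), Gnl3 (-0.18), Ncor1 (-0.0007), Sin3b (-0.29), E2f6 (-0.17) and Ccnb1 (-0.25). In the difference of changes they were Max (-0.0007), Mxd4 (-0.18) and Mnt (-0.21), and in IgE PC against D6 Mnt (-0.18).

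On log2(TPM + 1) the changed signs between the plasma cells were those of Max (-0.080) and Mxd4 (-0.10), and between the iGC groups that of Mlx (-0.028). From iGC to PC in IgE they were Mxd4 (-0.22), Mga (-0.16), Mlxip (-0.59), Gnl3 (-0.43), Ep400 (-0.048), Trrap (-0.33), Ncor1 (-0.29), Sin3b (-0.40), E2f6 (-0.41) and Ccnb1 (-0.59). In IgG1 they were Mxd1 (-0.085), Mxd3 (-0.24), Mxd4 (-0.055), Mlx (-0.057), Mlxip (-0.33), Gnl3 (-0.27), Ep400 (-0.17), Trrap (-0.19) and Sin3b (-0.031). In the difference of changes they were Max (-0.019), Mxd4 (-0.16) and Mnt (-0.035). Against D6 they were Mnt (-0.50), Mlx (-0.072) and Mlxip (-0.023) in IgE PC, and Mnt (-0.39) and Mlx (-0.39) in IgG1 PC.

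Mnt changed sign between the plasma cells with DESeq2 (0.029), with its size factors in edgeR (0.031), and without IgE PC replicate 1 (0.0072) or 3 (0.012), or IgG1 PC replicate 2 (0.018) or 3 (0.024), and with 1 library left out it ranged from -0.074 to 0.024. In the difference of changes Mnt did so with upper quartile scaling (-0.088), at a minimum mean of 10 CPM (-0.013), and without IgE iGC replicate 3 (-0.028) or IgG1 PC replicate 1 (-0.030), with a range from -0.030 to 0.072, and Mxd4 with upper quartile scaling (-0.069). Between the iGC groups, signs changed without IgE iGC replicate 1 for Mlxip (0.027), replicate 2 for Mxi1 (0.0025) and replicate 3 for Max (0.0017) and Mnt (0.015), and without IgG1 iGC replicate 1 for Max (0.0046) and Mlxip (0.0001) and replicate 3 for Mlxip (0.0008). The ranges were -0.088 to 0.0025 for Mxi1, -0.085 to 0.0046 for Max, -0.084 to 0.015 for Mnt and -0.058 to 0.027 for Mlxip. Myc in IgG1 iGC against D6 ranged from -0.14 to 0.017, the latter without IgG1 iGC replicate 3, and Mga from iGC to PC in IgG1 from -0.47 without IgG1 PC replicate 2 to 0.020 without replicate 1.

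With 1 library left out, members called numbered 5 to 7 between the plasma cells, 7 to 8 from iGC to PC in IgE, 6 to 8 in IgG1, 4 to 6 in the difference of changes, and 5 to 8 and 5 to 6 in IgE and IgG1 iGC against D6. Replicate numbers are shared by the groups, but deviations of same-numbered libraries correlated between -0.195 and 0.091 over 30 pairs, with 0 over 0.1, so the numbers were not taken to pair the samples. With the replicate number as a block 6 members were called between the plasma cells and 9005 genes in all, Mxi1 in IgE iGC against D6 gained a call (adjusted p = 0.0415) and Ep400 between the plasma cells lost it (0.0653).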
